A study of Mus musculus with 6 samples.

Results

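The genes described here encode proteins of the Z-disc and M-band of the sarcomere, its giant and thin filament proteins, the desmin links between Z-discs and the membrane, and enzymes and chaperones that assemble sarcomere proteins or break them down. They were listed by symbol, and 40 of the 41 listed genes had a probe set that names only that gene, of 18193 genes measured in all. *Trim55* is not analysed here, and *Murc* is the gene that RefSeq calls *Cavin4*. Ventricles were compared between OE mice, of the genotype Myh6-MCM; CAG-S-COUP-TFII (n = 3), in which the Cre driver of cardiomyocytes switches on a COUP-TFII transgene, and CTRL mice (Myh6-MCM, n = 3), which carry the same driver without the transgene. Both groups were of mixed 129SvEv/C57Bl6/J background and were given tamoxifen, which activates the Cre, at 40 mg per kg per day for 3 days from 2 months of age. Harvest followed 16 days after dosing began, and the labels give the age as 2.5 months, where the array methods speak of animals 2 months old. RNA of whole ventricles, which hold fibroblasts, vessels and immune cells beside cardiomyocytes, was hybridised to 6 Affymetrix mouse arrays.

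The Z-disc is the boundary of the sarcomere, where thin filaments of opposite polarity are crosslinked by α-actinin and where many adaptor proteins that sense strain are anchored. The M-band lies at the centre of the sarcomere and crosslinks the thick filaments, and titin spans the distance between both structures. Z-disc proteins are known for inherited cardiomyopathies, and desmin filaments tie neighbouring Z-discs to each other and to the cell membrane.

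Each value was deposited as a log value (taken as log2) relative to the median of its probe set over the 6 arrays, so a value of 0 is the middle of the 6 arrays and holds no level of expression. Levels of different genes can therefore not be compared, nor can the tissue be checked for absent markers. In the check of the labels, the *Nr2f2* probe set 1416159_at (*Nr2f2* encodes COUP-TFII) had 1.72, 1.60 and 1.91 in OE arrays, against -1.99, -1.60 and -1.65 in CTRL arrays, an 11.2-fold difference. The other 5 *Nr2f2* probe sets differed by -0.34 to -0.13 (log2) and were not called. Arrays lay apart by a root mean square difference of 0.194 to 0.215 within OE, 0.208 to 0.233 within CTRL and 0.375 to 0.427 between the groups, and no array stood apart.

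Z-disc genes, 16 of the 40 measured, made up 10 of the 18 genes called here, and PDZ-LIM adaptors 5 of those 10. The PDZ-LIM adaptors were not among the groups by role fixed before the tests, so their count is a description only. Of the 40 genes measured, 10 rose and 8 fell in OE ventricles at an adjusted p under 0.05 (limma, Benjamini-Hochberg over all genes), and 22 did not pass. Thus 45.0% of them were called, where 26.7% of all genes were called, 14.9% as higher and 11.8% as lower. Of 56 other sarcomere genes, 42.9% were called. The genes were listed with earlier results of these data known, and dim probe sets could not be filtered out, so these shares are a description only. The values of OE and CTRL arrays did not overlap for 23 of the 40, or 57.5%, against 45.6% of all genes. The median log2 change was 0.10, beside -0.03 over all genes, and the median size of the change without its sign was 0.296, beside 0.167. Past 1.5-fold and called were 10 of the 40, against 7.73% of all genes, and past 2-fold 3 of the 40 (*Pdlim3*, *Pdlim5* and *Myot*), against 2.33%. By role, 7 of 16 Z-disc genes rose and 3 fell, 2 of 3 genes of desmin and its membrane links rose and 1 fell, none of 5 M-band and thick filament genes was called, 3 of 8 giant and thin filament genes fell with none higher, and 1 of 8 genes of turnover and assembly rose and 1 fell. Of the 18 calls, 11 held when any 1 array was left out, and the number of genes called lower was 3 without OE 1, 4 without CTRL 1 and 5 without OE 3 or CTRL 2. The share of all genes called lower dropped as well. It was 6.83% without OE 1, 7.70% without CTRL 1, 7.71% without OE 3 and 7.90% without CTRL 2. In whole ventricles, fewer cells of a type and less RNA per cell cannot be told apart.

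**Figure D1:**
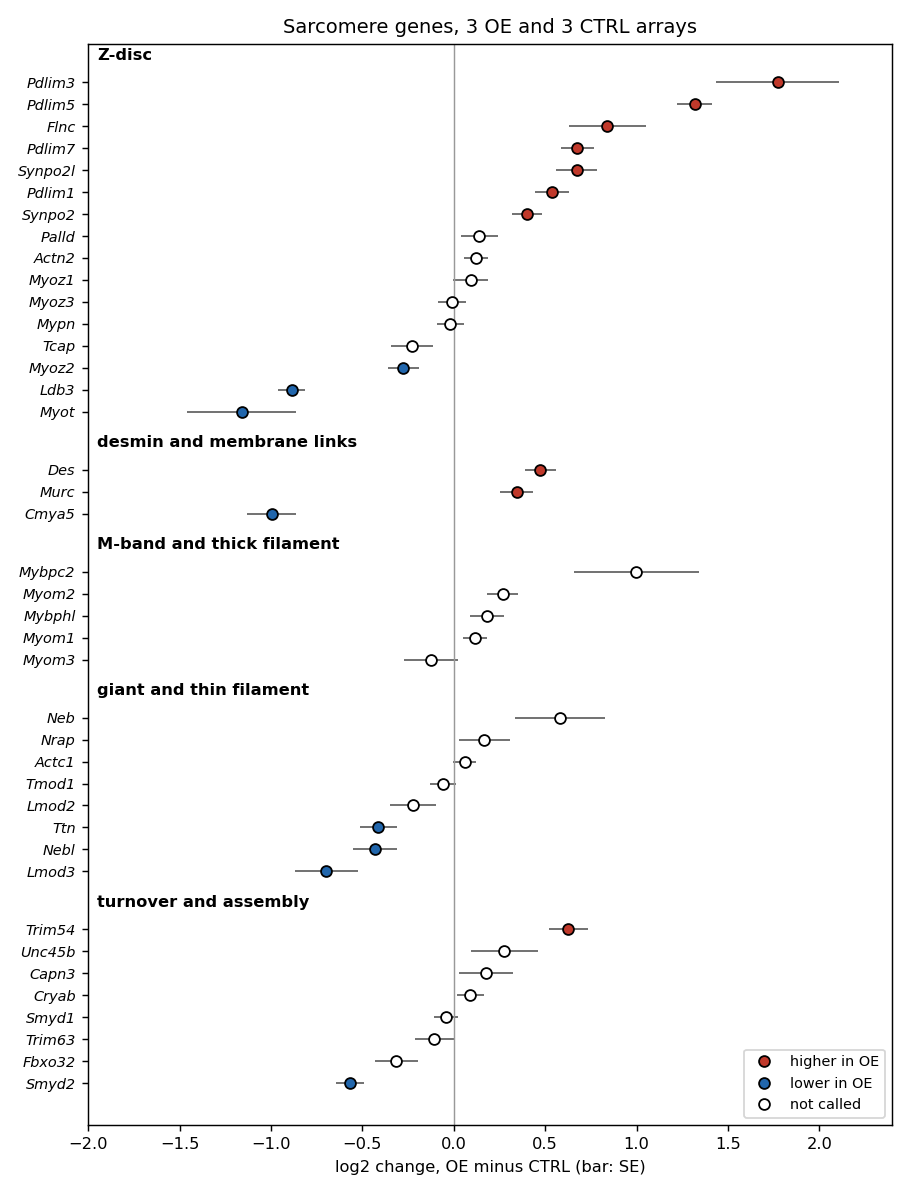
Log2 change (OE minus CTRL) of each of the 40 genes with its moderated standard error, grouped by role, with genes called higher, called lower and not called in separate colours. *Pdlim3* lies furthest to the right at 1.77 and *Myot* furthest to the left at -1.16, and all 5 M-band and thick filament genes are not called.

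Promoters of 31 of the 40 genes were in the RefSeq table used here (GRCm38.p6, 250 bases before to 50 bases after a start, 41 promoters), and they were searched for CTA and TAG with any 4 bases between them, a loose form of the MEF2 site that reads the same on both strands, and for AGGTCA on either strand, a nuclear receptor half-site of the kind that COUP-TFII binds as a dimer. The loose form was found in 8 of the 31 genes (25.8%: *Capn3*, *Des*, *Flnc*, *Ldb3*, *Myoz2*, *Synpo2*, *Synpo2l* and *Ttn*), against 4.23% of the 27025 genes in the table and 3.69% of its 32851 promoters. It was found in 4 of 10 genes that rose, 3 of 6 that fell and 1 of 15 that were not called. The MEF2 consensus has A or T at each of the 4 middle bases, and with that limit, added after the matches were seen, 5 of the 31 genes held it (16.1%: *Capn3*, *Myoz2*, *Synpo2*, *Synpo2l* and *Ttn*), against 0.636% of the genes and 0.557% of the promoters in the table. AGGTCA was found in 3 of the 31 (9.68%: *Actn2*, *Nebl* and *Pdlim5*), against 18.1% of the genes and 16.3% of the promoters in the table. A promoter of *Synpo2l*, which rose, and that of *Ttn*, which fell, are shown because the letters of the MEF2 consensus stood before genes that moved in opposite directions. A promoter of *Pdlim5* is shown because the gene rose and this promoter holds the half-site, read there as its reverse complement. *Synpo2l* and *Pdlim5* each have 2 promoters in the table, and the other promoter of each held no match. Capitals mark the match, which begins at base -109 from the start in *Synpo2l* (chr14:20668305-20668604), at -166 in *Ttn* (chr2:76982498-76982797) and at -148 in *Pdlim5* (chr3:142391801-142392100), all on the minus strand.
Synpo2l: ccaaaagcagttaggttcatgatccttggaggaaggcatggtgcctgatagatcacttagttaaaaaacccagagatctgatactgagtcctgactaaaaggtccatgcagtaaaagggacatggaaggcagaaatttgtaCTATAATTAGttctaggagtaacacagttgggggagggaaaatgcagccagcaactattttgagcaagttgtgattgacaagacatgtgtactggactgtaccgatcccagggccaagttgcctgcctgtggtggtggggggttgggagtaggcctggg
Ttn: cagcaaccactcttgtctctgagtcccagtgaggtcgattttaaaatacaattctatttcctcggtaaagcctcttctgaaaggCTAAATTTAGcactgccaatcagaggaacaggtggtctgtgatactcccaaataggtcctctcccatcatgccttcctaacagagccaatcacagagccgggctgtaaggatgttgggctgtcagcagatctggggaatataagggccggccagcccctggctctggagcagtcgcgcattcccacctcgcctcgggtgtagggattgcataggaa
Pdlim5: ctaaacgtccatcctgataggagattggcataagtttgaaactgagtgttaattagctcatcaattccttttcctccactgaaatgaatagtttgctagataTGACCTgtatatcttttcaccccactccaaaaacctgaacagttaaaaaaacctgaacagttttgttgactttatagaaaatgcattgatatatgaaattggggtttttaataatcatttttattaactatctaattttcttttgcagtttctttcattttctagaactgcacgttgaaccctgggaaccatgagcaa
A match of letters is a description and not a binding site, and no binding was measured here.

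The PDZ-LIM genes encode adaptors that bind α-actinin through a PDZ domain and carry signalling proteins on LIM domains. Of the 5 listed here, 4 rose and *Ldb3* fell, and of 2 further family members, *Pdlim2* differed by 0.76 (adjusted p = 0.0498 by limma) and *Pdlim4* by -0.09 (adjusted p = 0.689). *Pdlim5*, which encodes the enigma homologue protein ENH, had 0.63, 0.60 and 0.63 in OE ventricles, against -0.60, -0.90 and -0.60 in CTRL ventricles. All OE arrays lay far above all CTRL arrays, and the OE arrays were almost equal. The means were 0.62 ± 0.02 in OE and -0.70 ± 0.17 in CTRL (SD, n = 3 each), a 2.49-fold rise (log2 1.32, SE 0.09, adjusted p = 0.000219 by limma). *Pdlim3*, which encodes the actinin-associated LIM protein ALP, had 0.46, 0.36 and 0.76 in OE ventricles, against -1.62, -0.36 and -1.75 in CTRL ventricles. OE and CTRL arrays did not overlap, and CTRL 2 stood well above the other 2 CTRL arrays. The means of *Pdlim3* were 0.53 ± 0.21 in OE and -1.24 ± 0.77 in CTRL, a 3.41-fold rise (log2 1.77, SE 0.34, adjusted p = 0.00829), which lay between 1.52 and 2.22 when any 1 array was left out.

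*Pdlim7*, the gene of enigma, had 0.32, 0.33 and 0.24 in OE ventricles, against -0.27, -0.55 and -0.32 in CTRL ventricles, a 1.60-fold rise (log2 0.68, SE 0.09, adjusted p = 0.00187 by limma). *Pdlim1*, the gene of CLP36, had 0.23, 0.24 and 0.17 in OE ventricles, against -0.35, -0.48 and -0.15 in CTRL ventricles, a 1.45-fold rise (log2 0.54, SE 0.09, adjusted p = 0.00547). Neither gene overlapped between the groups. *Ldb3* encodes Cypher, also called ZASP, the PDZ-LIM protein most tied to striated muscle. It had -0.38, -0.51 and -0.43 in OE ventricles, against 0.35, 0.51 and 0.49 in CTRL ventricles. Every OE array of *Ldb3* was thus below every CTRL array, and the fall was 1.85-fold (log2 -0.89, SE 0.07, adjusted p = 0.000383). The 4 rises and the fall of *Ldb3* stayed called when any 1 array was left out and under every scaling tried, while *Pdlim3* was not called by one-way analysis of variance (adjusted p = 0.0805).

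Among the other Z-disc genes that rose, *Synpo2l* (CHAP, an actin-binding Z-disc protein) had 0.12, 0.46 and 0.34 in OE ventricles, against -0.47, -0.43 and -0.20 in CTRL ventricles. The groups did not overlap, and the rise was 1.59-fold (log2 0.67, SE 0.11, adjusted p = 0.00462 by limma). *Synpo2* (myopodin, which also occurs in smooth muscle) had 0.23, 0.24 and 0.33 in OE ventricles, against 0.01, -0.24 and -0.17 in CTRL ventricles, a 1.32-fold rise (log2 0.40, SE 0.08, adjusted p = 0.0119). The groups did not overlap here either, but the mean of *Synpo2* joins probe sets that moved in opposite directions, as given below. *Flnc*, whose product filamin C crosslinks actin at the Z-disc and the intercalated disc, had 0.07, 0.45 and 0.24 in OE ventricles, against -0.89, -0.79 and -0.07 in CTRL ventricles. CTRL 3 lay close to OE 1, and the rise of 1.79-fold (log2 0.84, SE 0.21, adjusted p = 0.0232) was not called without OE 2, OE 3, CTRL 1 or CTRL 2 (adjusted p 0.0611 to 0.0751). When each array was instead centred on its ribosomal protein genes, the change of *Synpo2* was 0.18 (adjusted p = 0.0764).

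Of the Z-disc genes that fell besides *Ldb3*, *Myot* showed the largest change. It encodes myotilin, which binds α-actinin and filamin C. It had -1.15, -0.24 and -0.17 in OE ventricles, against 0.71, 0.17 and 1.04 in CTRL ventricles. All OE arrays were below all CTRL arrays, although OE 1 was far below the other OE arrays and CTRL 2 was far below the other CTRL arrays. The means were -0.52 ± 0.55 in OE and 0.64 ± 0.44 in CTRL (SD, n = 3 each; log2 -1.16, SE 0.30, adjusted p = 0.0253 by limma), and the call was lost without OE 1, CTRL 1 or CTRL 3 (adjusted p 0.0517 to 0.0734). *Myoz2*, the gene of calsarcin-1, which holds calcineurin at the Z-disc, had -0.10, -0.25 and -0.04 in OE ventricles, against 0.22, 0.04 and 0.18 in CTRL ventricles. This 1.21-fold fall (log2 -0.28, SE 0.09, adjusted p = 0.0482) was not called when any 1 array other than CTRL 2 was left out (adjusted p 0.0552 to 0.135).

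The remaining 6 Z-disc genes were not called. *Actn2*, the gene of sarcomeric α-actinin, had 0.12, 0.02 and 0.09 in OE ventricles, against -0.09, -0.03 and -0.02 in CTRL ventricles. Its groups did not overlap but lay close together (log2 0.12, SE 0.07, adjusted p = 0.203 by limma). *Tcap*, the gene of telethonin, which caps titin at the Z-disc, had 0.00, -0.42 and -0.05 in OE ventricles, against 0.00, 0.14 and 0.07 in CTRL ventricles (log2 -0.23, SE 0.11, adjusted p = 0.178). OE 1 lay just under CTRL 1, so the groups of *Tcap* did not overlap. *Palld* (palladin) and *Myoz1* (calsarcin-2) differed by 0.14 and 0.09, and *Mypn* (myopalladin) and *Myoz3* (calsarcin-3) by -0.02 and -0.01, with overlapping groups. On the ribosomal scale, each array is centred on its ribosomal protein genes. There the median change of all genes was -0.25, and 50.7% of all genes were called lower. Among those were *Tcap* (-0.44, adjusted p = 0.0114) and *Mypn* (-0.23, adjusted p = 0.0427), the latter near that median.

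**Figure D2:**
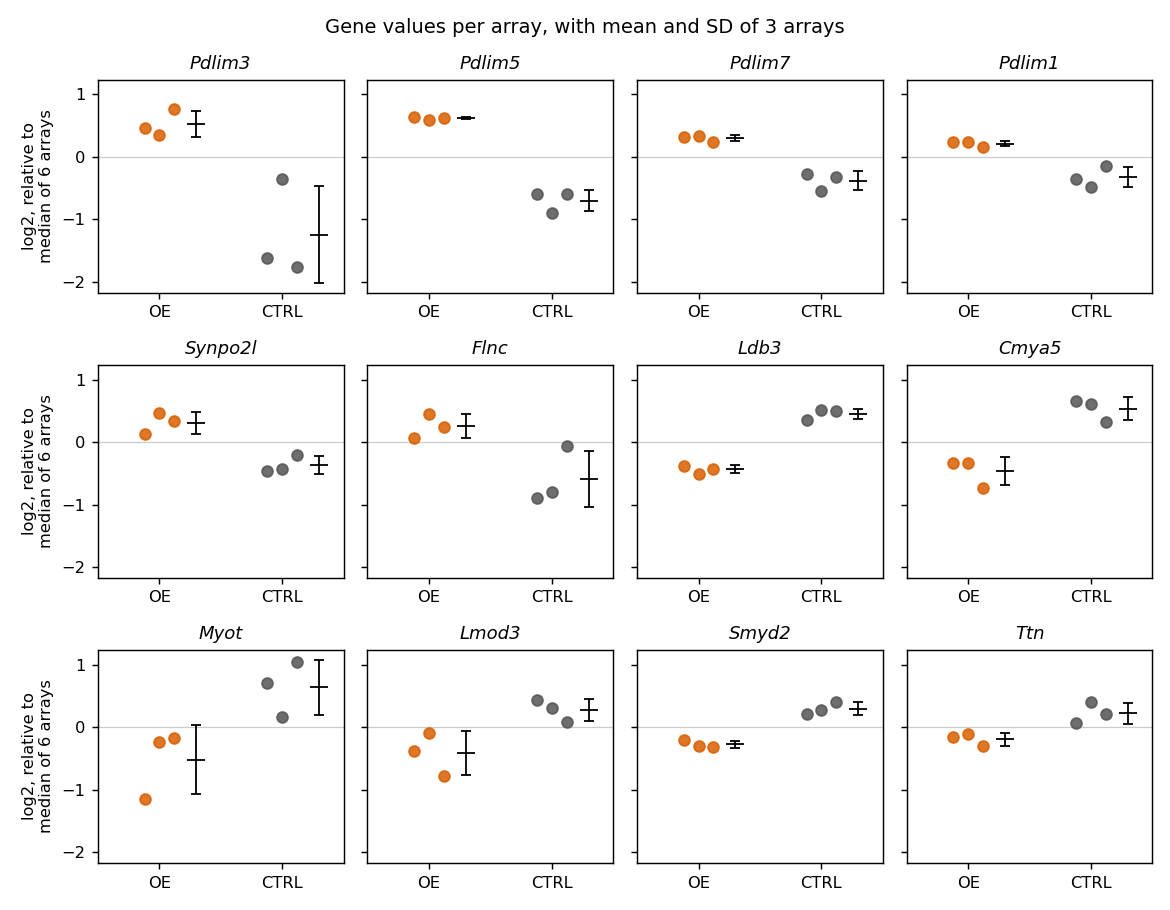
Values of 12 called genes in the 3 OE arrays (orange) and the 3 CTRL arrays (grey), on the deposited log2 scale relative to the median of each probe set, with a bar for the mean and SD beside each group. *Pdlim5* and *Ldb3* show narrow groups far apart in opposite directions, while 1 CTRL array of *Pdlim3* and of *Flnc* and 1 OE array of *Myot* lie away from the others of their group.

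All 3 genes of desmin and its links to the membrane were called, 2 as higher and 1 as lower, where 26.7% of all genes were called. With 3 genes, the share of the group says little. *Des*, the gene of the intermediate filament protein desmin, had 0.14, 0.27 and 0.42 in OE ventricles, against -0.17, -0.22 and -0.21 in CTRL ventricles. All OE arrays lay above all CTRL arrays, and the CTRL arrays were almost equal. The rise was 1.39-fold (log2 0.47, SE 0.08, adjusted p = 0.00632 by limma). *Murc*, the gene of cavin-4, a caveolar protein of muscle, had 0.15, 0.26 and 0.05 in OE ventricles, against -0.30, -0.22 and -0.05 in CTRL ventricles. The groups did not overlap, OE 3 and CTRL 3 being closest, and the rise of 1.27-fold (log2 0.34, SE 0.09, adjusted p = 0.0272) was not called without OE 1, OE 2, CTRL 1 or CTRL 2 (adjusted p 0.0749 to 0.0836). *Cmya5*, the gene of myospryn, which binds desmin and α-actinin, had -0.33, -0.33 and -0.73 in OE ventricles, against 0.66, 0.61 and 0.33 in CTRL ventricles. Every OE array was below every CTRL array of *Cmya5*, and the means of -0.46 ± 0.23 in OE and 0.53 ± 0.18 in CTRL (SD, n = 3 each) gave a fall of 1.00 on the log2 scale (SE 0.13, adjusted p = 0.00205). On the ribosomal scale, *Murc* differed by 0.13 (adjusted p = 0.296).

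None of the 5 M-band and thick filament genes was called by limma, and 2 had an unadjusted p under 0.05. *Mybpc2*, the gene of the myosin-binding protein C of fast skeletal muscle, had -0.07, 0.35 and 1.19 in OE ventricles, against -0.86, -0.72 and 0.07 in CTRL ventricles. CTRL 3 lay above OE 1, and both groups were widely spread. The difference of 1.00 on the log2 scale (SE 0.34, adjusted p = 0.0659) was called without OE 1 or without CTRL 3 (adjusted p 0.0291 to 0.045). *Myom2*, the gene of M-protein, had 0.08, -0.02 and 0.17 in OE ventricles, against -0.24, -0.06 and -0.26 in CTRL ventricles. Its groups did not overlap (log2 0.27, SE 0.08, adjusted p = 0.0506), and it was called in 4 of 13 other settings. These were without CTRL 2 (adjusted p = 0.0399 by limma), with weighted arrays, with arrays centred on their median and with only its probe set of largest variance (0.54, adjusted p = 0.0355). *Myom1*, the gene of myomesin, the main crosslinker of the M-band, differed by 0.12 (adjusted p = 0.231) without overlap. *Myom3* differed by -0.12 (adjusted p = 0.556) and *Mybphl*, a relative of myosin-binding protein H known from atria, by 0.18 (adjusted p = 0.178), both with overlap.

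Among giant and thin filament genes, titin, nebulette and leiomodin-3 fell and none rose. *Ttn*, the gene of the elastic filament that spans from Z-disc to M-band, had -0.16, -0.11 and -0.31 in OE ventricles, against 0.07, 0.40 and 0.20 in CTRL ventricles. All OE arrays lay below all CTRL arrays, and the fall was 1.33-fold (log2 -0.41, SE 0.10, adjusted p = 0.0209 by limma). *Nebl*, the gene of nebulette, the short cardiac relative of nebulin, had -0.09, -0.35 and -0.18 in OE ventricles, against 0.20, 0.44 and 0.01 in CTRL ventricles, a 1.35-fold fall (log2 -0.43, SE 0.12, adjusted p = 0.0349). *Lmod3*, the gene of a leiomodin, which nucleates actin filaments, had -0.38, -0.09 and -0.79 in OE ventricles, against 0.44, 0.31 and 0.09 in CTRL ventricles. Neither *Nebl* nor *Lmod3* overlapped between the groups, and *Lmod3* fell 1.62-fold (log2 -0.70, SE 0.17, adjusted p = 0.0227). These calls rest on few arrays: that of *Ttn* was lost without OE 1, OE 3 or CTRL 2 (adjusted p 0.055 to 0.0652), that of *Lmod3* without OE 1, CTRL 1 or CTRL 2 (0.0613 to 0.0748) and that of *Nebl* when any 1 array other than CTRL 3 was left out (0.0552 to 0.102).

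The other 5 genes of these filaments did not pass the test. *Neb*, the gene of nebulin, the ruler protein of skeletal thin filaments, had -0.03, 0.13 and 0.21 in OE ventricles, against -1.08, -0.39 and 0.03 in CTRL ventricles. CTRL 3 lay above OE 1, and the difference of 0.58 (SE 0.25, adjusted p = 0.119 by limma) was called without CTRL 3 (adjusted p = 0.0222). *Lmod2*, the cardiac leiomodin, had -0.02, 0.02 and -0.10 in OE ventricles, against 0.33, 0.35 and -0.11 in CTRL ventricles. CTRL 3 was again the array that overlapped the other group, and the difference of -0.22 (adjusted p = 0.219) was called without it (adjusted p = 0.0168). *Actc1* (cardiac α-actin) differed by 0.06 (adjusted p = 0.505), *Nrap* (a protein of myofibril assembly) by 0.17 (adjusted p = 0.401) and *Tmod1* (tropomodulin, which caps the pointed end) by -0.06 (adjusted p = 0.569). On the ribosomal scale, *Lmod2* (-0.44, adjusted p = 0.0224) and *Tmod1* (-0.27, adjusted p = 0.0232) were called lower. So were 50.7% of all genes on that scale, and the median change of all genes was -0.25.

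Of the genes of turnover and assembly, *Trim54* rose and *Smyd2* fell. *Trim54* encodes MuRF3, a ubiquitin ligase that binds microtubules and the Z-disc, and it had 0.27, 0.18 and 0.50 in OE ventricles, against -0.45, -0.29 and -0.18 in CTRL ventricles. The groups did not overlap, and the rise was 1.54-fold (log2 0.63, SE 0.11, adjusted p = 0.00545 by limma). *Smyd2* encodes a lysine methyltransferase with Hsp90 among its substrates, and it had -0.21, -0.30 and -0.31 in OE ventricles, against 0.21, 0.28 and 0.40 in CTRL ventricles. Each group was narrow and the gap between them wide, and the fall was 1.48-fold (log2 -0.57, SE 0.08, adjusted p = 0.00194). *Fbxo32*, the gene of the ubiquitin ligase subunit atrogin-1, had 0.04, -0.18 and -0.03 in OE ventricles, against 0.40, 0.37 and 0.01 in CTRL ventricles. CTRL 3 lay below OE 1, and the difference of -0.31 (adjusted p = 0.0853) was called without CTRL 3 (adjusted p = 0.0162).

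The 5 other genes of turnover and assembly overlapped between the groups and were not called. They were *Unc45b*, a myosin chaperone (log2 0.28, adjusted p = 0.291 by limma), *Capn3*, a protease bound to titin (0.18, adjusted p = 0.41), *Cryab*, the small heat shock protein αB-crystallin (0.09, adjusted p = 0.403), *Smyd1*, a methyltransferase needed for sarcomere assembly (-0.04, adjusted p = 0.661), and *Trim63*, the ubiquitin ligase MuRF1 (-0.11, adjusted p = 0.482). On the ribosomal scale, *Fbxo32* (-0.53, adjusted p = 0.00749), *Trim63* (-0.32, adjusted p = 0.0252) and *Smyd1* (-0.26, adjusted p = 0.0222) were called lower. So were 50.7% of all genes there, whose median change was -0.25.

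The gene values above are means of probe sets, and for several genes the probe sets moved apart. A probe set is a group of short probes to one stretch of a transcript, often at its 3′ end, so probe sets of a gene can read different transcripts. Which transcript each probe set reads, and whether some also read other genes, was not analysed here. The 40 genes had 86 probe sets, 22 of them higher and 15 lower (43.0% called, against 24.4% of all probe sets, 13.9% as higher and 10.4% as lower). Of 65 probe sets in the 19 genes with several, 22 changed differently from the mean of the other probe sets of their gene (33.8%, against 15.2% of all such probe sets, 7.78% higher and 7.4% lower than the rest; limma on the difference within each array), and these lay in 10 genes. In a gene with 2 probe sets the 2 differences mirror each other, so those of *Des* count as 2 of the 22. Of those 22, 13 stayed called when any 1 array was left out. Only *Ldb3* of the 19 genes had all its probe sets called lower, and none had all of them called higher. For these counts of genes, the shares over all genes with several probe sets were not computed.

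*Pdlim5* had the widest split in the size of its change. Its probe set 1422861_s_at had 1.26, 1.00 and 1.05 in OE ventricles, against -1.0, -1.89 and -1.19 in CTRL ventricles, a log2 change of 2.46 (SE 0.21, adjusted p = 0.00034 by limma). Probe set 1450786_x_at rose by 2.44, and 1427475_a_at, 1422862_at and 1422863_s_at rose by 1.57, 1.41 and 1.27. The other 2 probe sets of *Pdlim5*, 1429783_at and 1421413_a_at, changed by 0.05 (adjusted p = 0.696) and 0.01 (adjusted p = 0.944). Set against the rest of the gene, 1429783_at differed by -1.48 (SE 0.12, adjusted p = 0.00061) and 1421413_a_at by -1.52 (SE 0.16, adjusted p = 0.00137). The mean of 1.32 for *Pdlim5* therefore joins 5 probe sets that rose with 2 that were not called.

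*Synpo2* and *Synpo2l* each had probe sets called in opposite directions. *Synpo2* probe set 1452879_at had 0.65, 0.59 and 0.70 in OE ventricles, against -0.61, -0.61 and -0.59 in CTRL ventricles, a rise of 1.25 (SE 0.08, adjusted p = 0.000104 by limma). *Synpo2* probe set 1435399_at had -0.25, -0.24 and -0.25 in OE ventricles, against 1.26, 0.24 and 0.72 in CTRL ventricles. There every OE array was below every CTRL array, and the change was -0.99 (SE 0.22, adjusted p = 0.0145), which differed from the rest of the gene by -1.85 (SE 0.22, adjusted p = 0.00177). *Synpo2l* probe set 1428295_at had 0.51, 1.09 and 0.63 in OE ventricles, against -0.84, -1.03 and -0.51 in CTRL ventricles, a rise of 1.54 (adjusted p = 0.00109). *Synpo2l* probe set 1458691_at had -0.40, -0.33 and -0.09 in OE ventricles, against 0.20, 0.10 and 0.09 in CTRL ventricles. It fell by 0.40 (adjusted p = 0.0244), a call lost without OE 1, OE 2, CTRL 1 or CTRL 2 (adjusted p 0.0548 to 0.0852), and it differed from the rest of the gene by -1.43 (adjusted p = 0.0017).

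*Smyd1*, not called as a gene, had 1 probe set that rose and 2 that fell. Probe set 1441667_s_at of *Smyd1* had 0.43, 0.34 and 0.16 in OE ventricles, against -0.16, -0.16 and -0.16 in CTRL ventricles, and differed from the rest of the gene by 0.62 (adjusted p = 0.00892 by limma). Probe set 1443726_at had -0.32, -0.18 and -0.13 in OE ventricles, against 0.29, 0.13 and 0.15 in CTRL ventricles, a change of -0.40 (adjusted p = 0.0157) that was not called without OE 1 or CTRL 1 (adjusted p 0.0517 to 0.0592). Probe set 1443727_x_at of *Smyd1* changed by -0.37 (adjusted p = 0.0241) and was not called when any 1 array other than CTRL 3 was left out (adjusted p 0.053 to 0.0792). The groups did not overlap in any of the 3 probe sets of *Smyd1*, so the near-zero mean of the gene joins changes of opposite sign.

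*Ttn* had 6 probe sets, of which 1444638_at, 1444083_at and 1431928_at fell by 0.83, 0.68 and 0.47 (adjusted p = 0.02, 0.00922 and 0.0125 by limma) and the other 3 were not called. Probe set 1444638_at had -0.34, -0.14 and -0.89 in OE ventricles, against 0.14, 0.63 and 0.36 in CTRL ventricles, without overlap, and it was not called without CTRL 2 (adjusted p = 0.0634). Probe set 1427445_a_at of *Ttn* changed by -0.03 (adjusted p = 0.818) and differed from the rest of the gene by 0.46 (SE 0.12, adjusted p = 0.03), which was not called when any 1 array other than CTRL 1 was left out (adjusted p 0.0508 to 0.0892). The 3 *Ldb3* probe sets fell by 1.22, 1.00 and 0.44, and the smallest of these, 1433783_at, differed from the rest of the gene by 0.66 (adjusted p = 0.00946). *Pdlim7* probe set 1417959_at had 0.71, 0.64 and 0.63 in OE ventricles, against -0.70, -1.05 and -0.63 in CTRL ventricles, and its rise of 1.46 exceeded the rest of the gene by 1.17 (adjusted p = 0.000792). The *Des* probe sets 1426731_at and 1426732_at changed by 0.81 and 0.13, a difference of 0.68 (adjusted p = 0.0184) that was not called without OE 2 or OE 3 (adjusted p 0.051 to 0.0589). In *Myom2*, not called as a gene, 1450917_at (0.54, adjusted p = 0.0383) and 1438175_x_at (0.38, adjusted p = 0.0329) rose, and neither was called when any 1 array other than CTRL 2 was left out (adjusted p 0.0612 to 0.116).

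**Figure D3:**
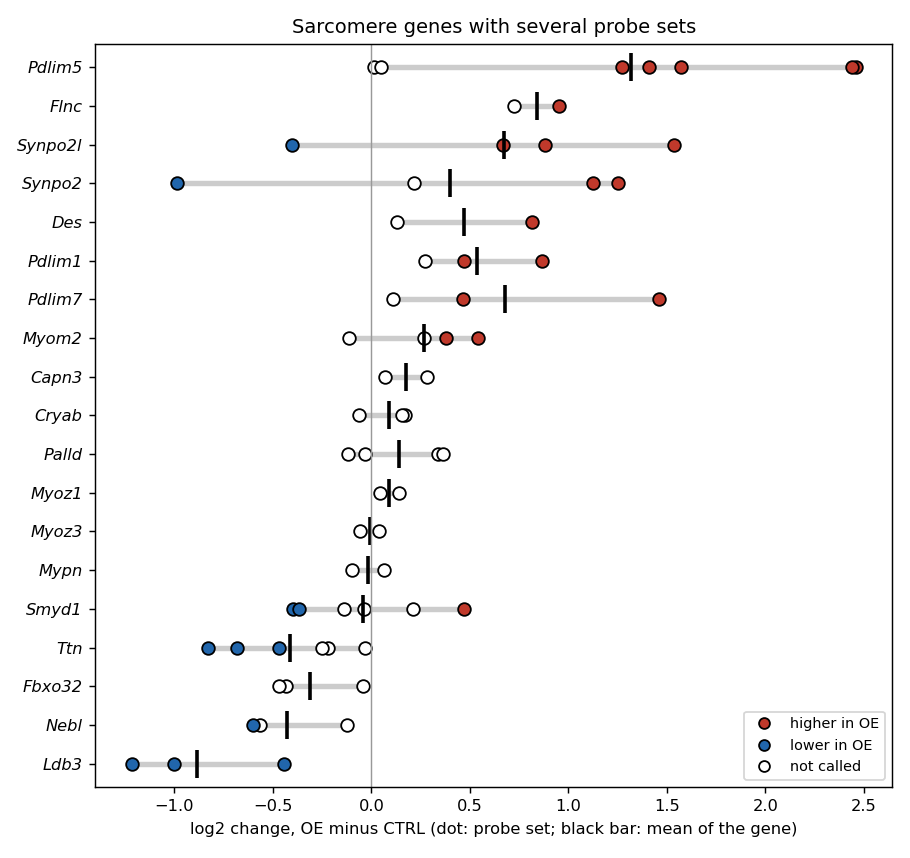
Log2 change (OE minus CTRL) of each probe set of the 19 genes with several, 1 line per gene, with filled dots for called probe sets and a black bar for the mean of the gene. *Pdlim5* spreads from 0.01 to 2.46, and *Synpo2*, *Synpo2l* and *Smyd1* have probe sets called on both sides of 0.

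**Figure D4:**
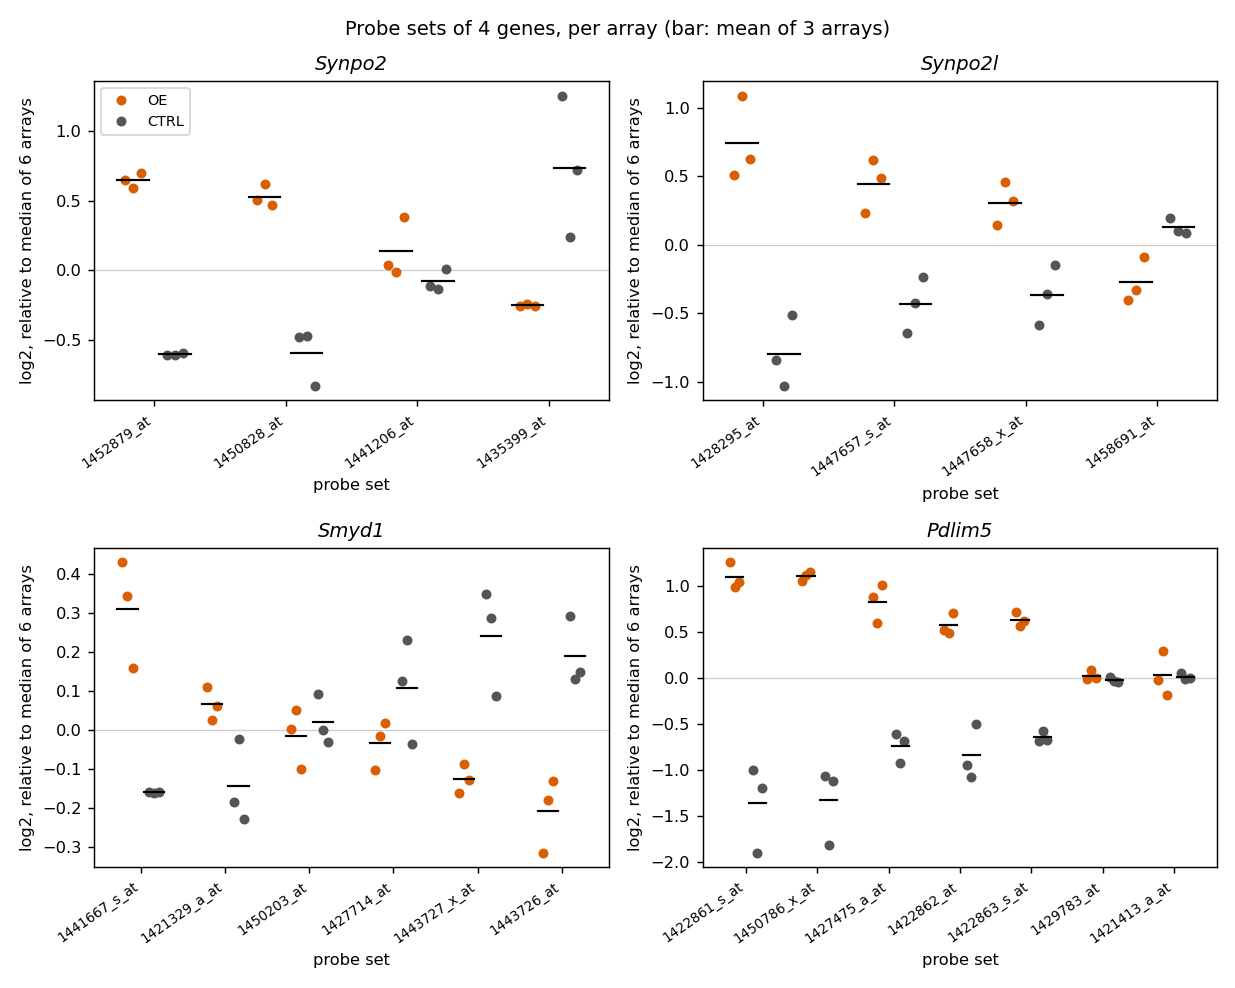
Values of every probe set of *Synpo2*, *Synpo2l*, *Smyd1* and *Pdlim5* in the 3 OE arrays (orange, left) and the 3 CTRL arrays (grey, right), on the deposited log2 scale, with a bar for the mean of 3 arrays. In *Synpo2*, 1452879_at is high and 1435399_at low in all OE arrays, and in *Pdlim5* the groups part in 5 probe sets and lie together near 0 in the other 2.

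Related genes were also compared within each array, as the value of one minus that of the other, which on this scale gives a difference of change and not of level. Of 12 pairs written down, 10 could be compared, and 7 did not overlap between the groups, where 45.6% of single genes did not (the share for other pairs of genes was not computed). The pairs were chosen with earlier results of these data known, so their count is a description only. With 3 arrays a group, the two-sided exact permutation test cannot go below p = 0.1, which these 7 reached (adjusted p = 0.143 over the 10 pairs). *Pdlim7* minus *Ldb3* averaged 0.74 ± 0.09 in OE and -0.83 ± 0.22 in CTRL (SD, n = 3 each), a difference of 1.56 (SE 0.14) between PDZ-LIM genes of the same subfamily. *Pdlim1* minus *Pdlim5* averaged -0.41 ± 0.05 in OE and 0.37 ± 0.11 in CTRL, a difference of -0.78 (SE 0.07). *Neb* minus *Nebl* averaged 0.31 ± 0.22 in OE and -0.70 ± 0.67 in CTRL, a difference of 1.01 (SE 0.41). Of the 10 pairs, the largest difference was thus that between enigma and Cypher. The other pairs without overlap were *Smyd2* minus *Smyd1* (-0.53, SE 0.10), *Lmod3* minus *Lmod2* (-0.47, SE 0.18), *Myoz1* minus *Myoz2* (0.37, SE 0.12) and *Myom1* minus *Myom2* (-0.15, SE 0.06). *Nrap* minus *Nebl*, *Palld* minus *Mypn* and *Synpo2* minus *Synpo2l* overlapped (differences 0.60, 0.16 and -0.27).

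A list of 60 other sarcomere genes had 56 measured, of which 14 rose and 10 fell (42.9% called, against 26.7% of all genes), with a median log2 change of 0.06. *Lmod1*, *Mybpc3*, *Csrp3* and *Actn3* of this list also stand in a marker list below. The largest rises were those of *Ankrd1* (1.10, SE 0.16, adjusted p = 0.00262 by limma), a stretch-responsive repeat protein bound to titin, *Actn1* (0.88, SE 0.07, adjusted p = 0.000263), *Pdlim2* (0.76, SE 0.24, adjusted p = 0.0498) and *Actn4* (0.73, SE 0.10, adjusted p = 0.00227). *Actn1* and *Actn4* encode the α-actinins of non-muscle cells, and both rose where sarcomeric *Actn2* was not called, a difference that was not tested. *Pdlim2* was not called when any 1 array other than CTRL 3 was left out (adjusted p 0.108 to 0.14). The largest falls were those of *Lrrc39* (-1.10, SE 0.09, adjusted p = 0.000306), an M-band protein that binds myosin, *Tmod4* (-0.79, SE 0.13, adjusted p = 0.00531), a skeletal muscle tropomodulin, *Cavin2* (-0.65, SE 0.13, adjusted p = 0.00908), a caveolar protein, and *Plec* (-0.56, SE 0.12, adjusted p = 0.0114), the gene of plectin, which links desmin to the Z-disc.

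Markers of other cell types moved with the groups as well. Some genes that rose (*Pdlim1*, *Pdlim7*, *Synpo2* and *Des*) are also used by smooth muscle cells or fibroblasts, while others, such as *Murc*, encode muscle proteins. Only *Des* of the genes described here is in the smooth muscle list, and it is left out of the count below. None is in the fibroblast list. Of 18 fibroblast markers, 9 were higher (largest *Postn* 2.66 and *Mfap5* 1.81) and 3 lower (*Ddr2* -0.41, *Gsn* -0.35 and *Dpt* -0.31). The 6 not called were *Pdgfra*, *Tcf21*, *Dcn*, *Thy1*, *Fbln1* and *Fap*. The mean of the 18 markers per array was 0.174 to 0.338 in OE and -0.476 to -0.163 in CTRL, and 1 marker was lower without OE 2. Of 13 smooth muscle and pericyte markers, 4 were higher and 7 lower (*Cnn1* rose by 4.94 and *Abcc9* fell by 2.00), with means of -0.034 to 0.072 in OE and -0.143 to 0.091 in CTRL. The mean of the fibroblast markers was thus higher in every OE array than in any CTRL array, while that of the smooth muscle markers overlapped between the groups. Of 19 macrophage markers, 9 were higher and none lower (*Cd14* 1.10, *Tyrobp* 1.08), with means of 0.059 to 0.352 in OE and -0.354 to -0.134 in CTRL, and 1 was lower without OE 3. Of 18 endothelial markers, none was higher and 10 lower (*Robo4* -0.74, *Aqp1* -0.67), with means of -0.197 to -0.007 in OE and 0.159 to 0.269 in CTRL, and 6 were lower without OE 2. The part of these cells in the changes above was not tested.

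Of 17 cardiomyocyte markers outside the genes described here, 4 were higher and 10 lower (*Myh6* -1.31, *Atp2a2* -0.95), with means of -0.209 to -0.168 in OE and 0.138 to 0.184 in CTRL. The 4 higher ones were *Tpm1* (0.38), *Csrp3* (0.33), *Mybpc3* (0.28) and *Tnnc1* (0.27), and their count was 0 to 3 when 1 array was left out. Of the 3 genes described here that are cardiomyocyte markers themselves, *Ttn* fell while *Actn2* and *Actc1* were not called. Of 7 atrial markers, 6 were higher and none lower (*Myl4* 2.56, *Dkk3* 1.89), with means of 0.466 to 0.831 in OE and -0.582 to -0.517 in CTRL, while *Mybphl*, also an atrial marker, was not called. Of 15 fast skeletal muscle markers, none was higher and 4 were lower (*Cacna1s* -0.81, *Tnni2* -0.59), with means of -0.177 to 0.019 in OE and 0.034 to 0.102 in CTRL and 1 higher without OE 1, beside the differences of *Mybpc2* and *Neb* above. The part of the number of cardiomyocytes in these values was not tested.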

How the data were processed

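Per the labels, total RNA of ventricles was biotin-labelled and hybridised to 6 Affymetrix whole-genome mouse arrays. The authors summarised probe sets by RMA, applied quantile normalization and subtracted from every probe set its own median of the 6 arrays, so the deposited log2 values hold no level. That the logarithm has base 2 is taken from RMA, since its base is not given in the sources used here. No filter on dim probe sets was possible, and the number of arrays limits the precision.

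The 34945 probe sets that name 1 gene symbol in the platform annotation (not the 932 with several, the 9211 with none or the array controls) were averaged per gene. OE was compared with CTRL with limma 3.58.1 (lmFit, then eBayes; R 4.3.3), two-sided, without covariates, with Benjamini-Hochberg adjustment over all genes or probe sets. SE is the moderated standard error. The labels do not say that the arrays are of separate mice, though the array methods do. The limma and analysis of variance fits of genes were checked on simulated data with independent noise. So was the limma fit of probe sets against the rest of their gene, but not the exact permutation test. Every listed gene was described. Of other sarcomere genes the 4 largest called rises and falls were named, and of each marker list the 2 largest called changes. Fibroblast markers that fell or were not called, and cardiomyocyte markers that rose, were named as well. The listed genes, marker lists and pairs were chosen with earlier results of these data known.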

Additional observations from a re-analysis of the deposited data

How the results depend on the processing

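Of the 18 called genes, 8 (*Ldb3*, *Synpo2l*, *Pdlim1*, *Pdlim5*, *Pdlim7*, *Des*, *Cmya5* and *Smyd2*) kept their direction and call under all 13 settings. By one-way analysis of variance, the test the methods name, 5 rose and 3 fell, with 9 and 4 of the other sarcomere genes, 12 and 5 probe sets, and 2 and 2 probe sets set against the rest of their gene. By that test 7.90% of all genes rose and 6.18% fell, beside 6.80% and 4.49% of all probe sets. Of all probe sets set against the rest of their gene, 1.05% were higher and 0.959% lower. Centring arrays on ribosomal protein genes moved the median change of all genes to -0.25, with 1309 genes higher and 9221 (50.7% of all genes) lower (12.4% of calls higher, against 55.7%). It gave 8 genes higher and 15 lower here (34.8% of calls higher, against 55.6%) and 8 higher and 25 lower among the other sarcomere genes. Before this centring, 16 of 43 ribosomal protein genes were higher and 1 lower, with a median change of 0.21. Past 1.5-fold, 6 rose and 4 fell, with 7 and 3 of the other sarcomere genes, beside 5.10% and 2.63% of all genes. With the probe set of largest variance, *Smyd1* changed by 0.47 and not by -0.04. When 1 array was left out, 8 to 12 genes rose and 3 to 8 fell, 11 to 16 of the other sarcomere genes rose and 7 to 10 fell, 18 to 24 probe sets rose and 10 to 17 fell, and 9 to 12 probe sets were higher and 6 to 8 lower than the rest of their gene. Over all genes, 1830 to 2371 rose and 1243 to 1731 fell then, against 2709 and 2152 with all arrays. Of all probe sets, 9.25% to 12.5% rose and 5.68% to 8.78% fell. Set against the rest of their gene, 3.58% to 6.58% were higher and 3.26% to 6.08% lower. Deviations of arrays with the same number had correlations of 0.0697, -0.117 and 0.0253. With 3 arrays a group, this cannot settle whether the numbers pair the arrays, and the labels do not say. With the replicate number as a block, 10 genes rose and 7 fell, beside 13.0% and 9.23% of all genes. There *Mybpc2* was called (adjusted p = 0.0026 by limma), while *Murc* (0.0573) and *Nebl* (0.0643) were not. Under the block, 7 probe sets, against 11, were lower than the rest of their gene. The causes were not tested.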
